A study of Mus musculus with 12 samples.

Results

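The genes described here are 32 regulators of DNA methylation and chromatin, chosen by symbol from the 55487 genes of a bulk RNA-seq count table of mouse monocytes. They cover DNA methylation and demethylation (Dnmt1, Dnmt3a, Dnmt3b, Uhrf1, Tet1, Tet2, Tet3), Polycomb repressive complex 2 or PRC2 (Ezh1, Ezh2, Eed, Suz12, Jarid2, Phf19) and Polycomb repressive complex 1 or PRC1 (Cbx2, Cbx7, Cbx8, Bmi1, Ring1, Rnf2). The others are a histone demethylase (Kdm6b), a trithorax-type methyltransferase (Kmt2a), deacetylases (Hdac1, Hdac2, Hdac3, Hdac7, Hdac9, Sirt1), remodelling subunits of the SWI/SNF type (Smarca4, Smarcc1) and subunits of the NuRD complex, which joins remodelling to deacetylation (Chd4, Mbd3, Mta2). All 32 were among the 14618 genes that passed the filter on low counts, and 31 of them had at least 10 counts in every library. The exception was Tet1, whose lowest count in a library was 7.

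The study sorted Ly6C+ monocytes (Ly6C marks the classical type) and sequenced 12 libraries in 4 groups of 3. The bone marrow group carried a WT genotype label and no age. The KO group was fetal liver at E13.5 (embryonic day) with a KO genotype label, and the Mixed group was fetal liver at E15.5 with a WT genotype label. The WT group was fetal liver with a WT genotype label, at E13.5 in WT 1 and at E15.5 in WT 2 and WT 3. The sources used here do not give the meaning of Mixed, the KO allele, any allele or treatment that all groups share, or the age of the bone marrow donors. cMaf and Zeb2 stand in the series title, and the design text speaks of tissue macrophages and of Z165KO mice, neither of which is in the sample labels. Genotype and embryonic day are therefore partly joined in KO against WT and wholly joined in KO against Mixed. Group and embryonic day are also partly joined in Mixed against WT. Tissue and developmental stage cannot be told apart in bone marrow against fetal liver. WT 1 differs in embryonic day from WT 2 and WT 3, so the spread within WT includes age. Beyond that, nothing in the labels ties the 3 libraries of a group to separate animals or cultures. The rest of the spread that p-values measure here may therefore be technical.

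DNA methyltransferases add methyl groups to cytosine, with DNMT1 and UHRF1 copying the pattern onto newly made DNA and DNMT3A and DNMT3B able to write it anew, while TET enzymes oxidise the mark. PRC2 methylates histone H3 on lysine 27 through EZH2 or its relative EZH1, and PRC1 reads that mark through CBX proteins and ubiquitinates histone H2A through RING1 or RNF2. Deacetylases remove acetyl groups from histones and other proteins, and SWI/SNF and NuRD move nucleosomes with the energy of ATP. EZH2 is known for its abundance in dividing cells and EZH1 for its presence in cells that divide little.

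Total counts per library ran from 17384911 to 24473471. Correlations of log CPM between libraries of a group were 0.9843 to 0.9885, against 0.9105 to 0.9162 between bone marrow and WT. Monocyte genes (Ly6c2, Ccr2, Csf1r, Itgam, Fcgr1, F13a1, Lyz2, Cd68) were present in every group, with a summed level of 34771 to 35483 CPM (counts per 1e+06 counts of the scaled library size) in the bone marrow libraries. The KO sums were 7554 to 8501, the Mixed sums 14291 to 14370 and the WT sums 10692 to 12190. The genes behind the lower KO sum went both ways. Against WT, 3 of the 8 were higher in KO at an adjusted p under 0.05 (edgeR), among them Ly6c2 (2.91-fold). Another 4 were lower, among them F13a1 (6.21-fold). Zeb2, named in the title and read here as a check of the KO label, was at 22.1 ± 1.87 CPM in KO (SD, n = 3 for this and every mean below) and 149.7 ± 13.1 in WT, a 6.75-fold difference. In bulk samples, fewer cells of a type and less RNA per cell cannot be told apart.

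Measured per length in TPM (transcripts per 1e+06 transcripts), the most abundant members in WT were Uhrf1 at 145 ± 7.42, Hdac1 at 127 ± 6.82 and Dnmt1 at 108 ± 0.964. The libraries of these 3 genes did not overlap in this group, while those of Dnmt1 overlapped Eed, at 105 ± 4.67. In bone marrow the order was Hdac1 at 118 ± 4.58, Dnmt1 at 99.8 ± 4.30, Mta2 at 92.4 ± 4.38 and Uhrf1 at 86.2 ± 0.394, of which only Dnmt1 and Mta2 overlapped. At the low end in WT stood Cbx2 at 0.383 ± 0.176, Cbx7 at 0.562 ± 0.135 and Tet1 at 0.653 ± 0.190, which do not differ beyond their spread. In every group Dnmt1, Tet2, Ezh2, Rnf2 and Hdac1 had the highest mean TPM of the related enzymes plotted with them.

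**Figure D1:**
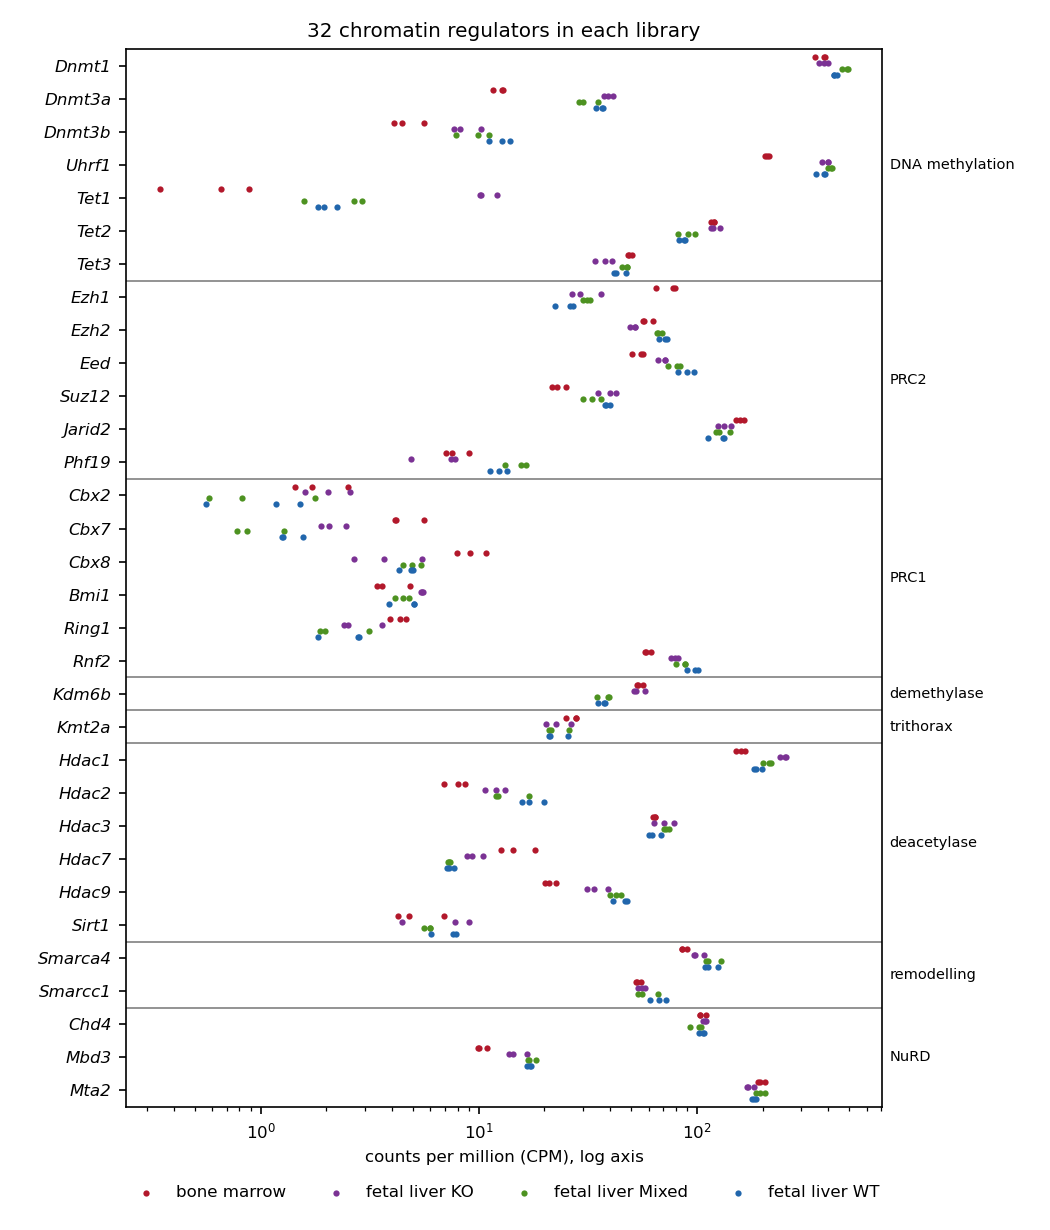
Level of each of the 32 genes in each of the 12 libraries, in CPM on a log axis, with one point per library, coloured by group and ordered by role. Bone marrow points lie apart from all 9 fetal liver points for Dnmt3a, Uhrf1, Ezh1, Cbx7 and Hdac9, and the KO points of Tet1, at 10.1 to 12.1 CPM, lie above all others.

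Of the 5 comparisons made, bone marrow against fetal liver WT had the largest median size of difference over these genes. Of the 32, 24 passed the test, 8 higher and 16 lower in bone marrow (edgeR's quasi-likelihood test, Benjamini-Hochberg adjusted p under 0.05 over all genes tested). The same rule called 64% of all genes, 32.1% higher and 31.9% lower, beside 75% of the members. A change of 1.5-fold or more was called for 16 members, against 41.5% of all genes, and one of 2-fold or more for 8, against 24.7%. The median difference was -0.24 on the log2 scale over the members and 0.0031 over all genes, and the median size was 0.68 against 0.56. The groups did not overlap for 26 members, a pattern seen in 68.1% of all genes.

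Bone marrow against Mixed, which shares the bone marrow libraries with that comparison, gave 24 calls among the members, 8 higher and 16 lower. The background there was 58.4% of all genes, 29.5% higher and 28.9% lower. The calls differed in 2 genes, Smarcc1 being called against WT alone and Hdac3 against Mixed alone. Some members have both folds below. The others called at 1.5-fold or more against WT have only that fold there. Of these, bone marrow was lower than Mixed for Tet1 (3.77-fold), Dnmt3b (2.04), Phf19 (1.91), Hdac2 (1.75), Mbd3 (1.69), Eed (1.47), Rnf2 (1.44) and Suz12 (1.44). It was higher than Mixed for Hdac7 (2.05-fold), Cbx8 (1.87) and Ring1 (1.86).

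The plot of differences by gene shows the de novo DNA methyltransferases, Tet1, Hdac2 and Hdac9 at the lower end and Ezh1, Cbx7 and Hdac7 at the upper end for bone marrow.

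**Figure D2:**
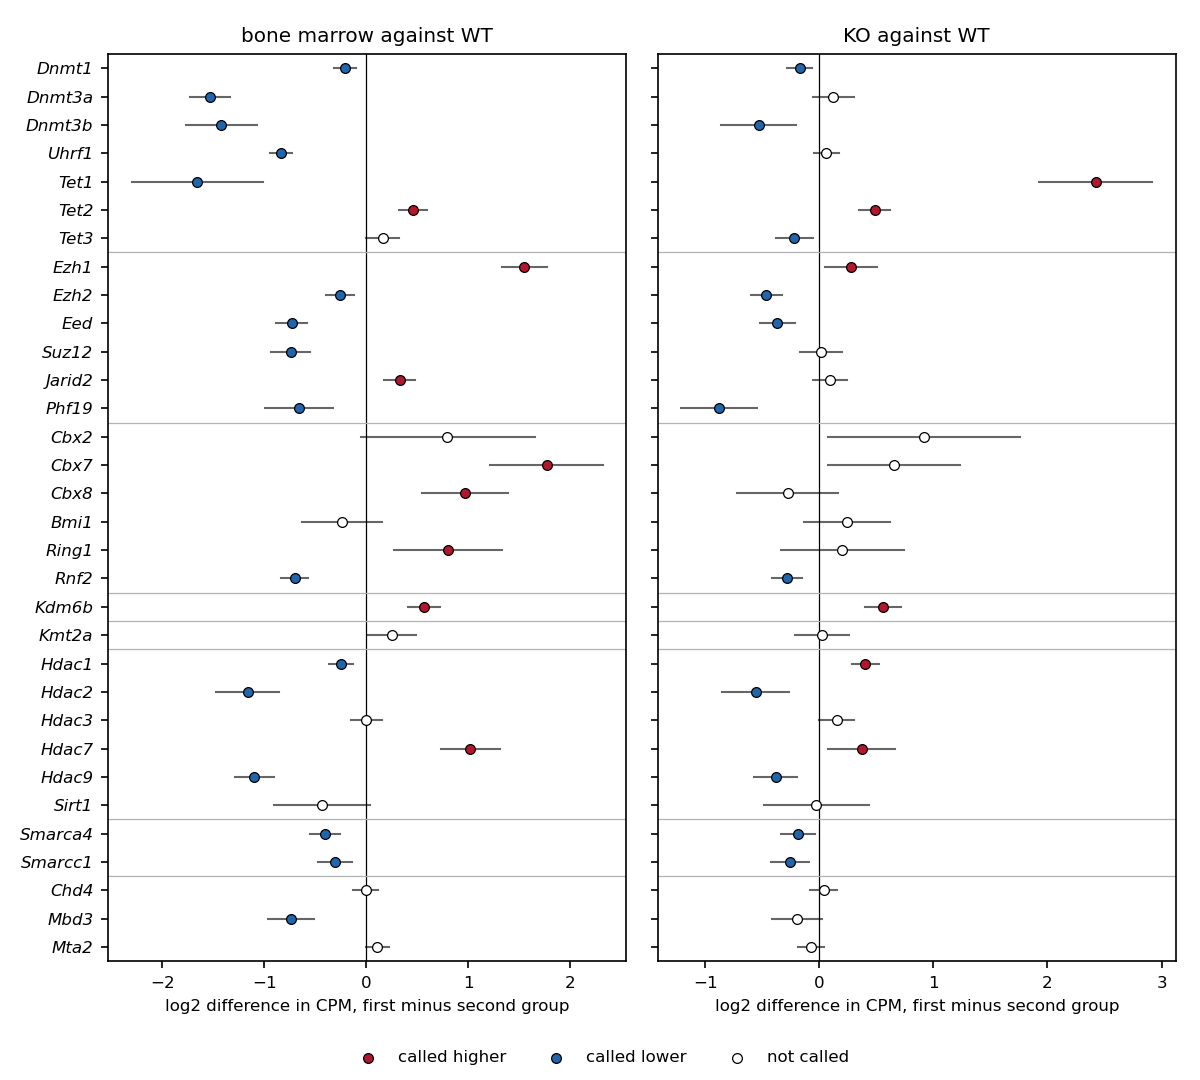
Difference of each member between bone marrow and WT (left) and between KO and WT (right), as log2 of CPM, first group minus second, with 95% intervals from the edgeR fit. Filled points passed an adjusted p under 0.05 (24 on the left, 17 on the right) and open points did not, and Tet1 lies at -1.65 on the left and 2.42 on the right.

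Among the DNA methyltransferases, the writers of new methylation had the larger differences. Dnmt3a was at 11.7, 12.8 and 12.9 CPM in the bone marrow libraries, 39.2, 41.2 and 37.5 in KO, 28.7, 35.2 and 29.9 in Mixed and 37.3, 36.5 and 34.4 in WT. Every bone marrow library was below every fetal library, and the fold was 2.89 lower than in WT (adjusted p = 4.48e-12) and 2.51 lower than in Mixed (adjusted p = 6.99e-11). Dnmt3b was at 4.45, 4.10 and 5.61 CPM in bone marrow, 7.73, 8.2 and 10.3 in KO, 9.88, 11.1 and 7.89 in Mixed and 11.1, 13.9 and 12.8 in WT. No bone marrow library reached a fetal one, and the fold was 2.67 below WT (adjusted p = 1.82e-07).

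Dnmt1, the maintenance enzyme, stood at a high level everywhere. Its values were 348, 388 and 383 CPM in bone marrow, 382, 364 and 400.2 in KO, 488, 464 and 490.3 in Mixed and 426, 425 and 439 in WT. The difference from WT was small, 1.15-fold lower (adjusted p = 0.00184), and from Mixed 1.29-fold lower (adjusted p = 3.62e-06). Its partner Uhrf1, which brings DNMT1 to newly copied DNA, fell further. Uhrf1 read 204, 209 and 213 CPM in bone marrow, 397, 373 and 397 in KO, 413, 399 and 415 in Mixed and 349, 381 and 387 in WT. That was 1.78-fold lower than WT (adjusted p = 5.24e-12) and 1.96-fold lower than Mixed (adjusted p = 5.71e-13), with no overlap.

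Per length, Dnmt3a amounted to 0.0227 to 0.0243 of Dnmt1 in the bone marrow libraries and to 0.0373 to 0.102 of it in the 9 fetal libraries, by the ratio of TPM. The 2 ranges did not overlap, and no test was made of the ratio. The plot of related enzymes shows Dnmt1 above both Dnmt3a and Dnmt3b in every library.

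**Figure D3:**
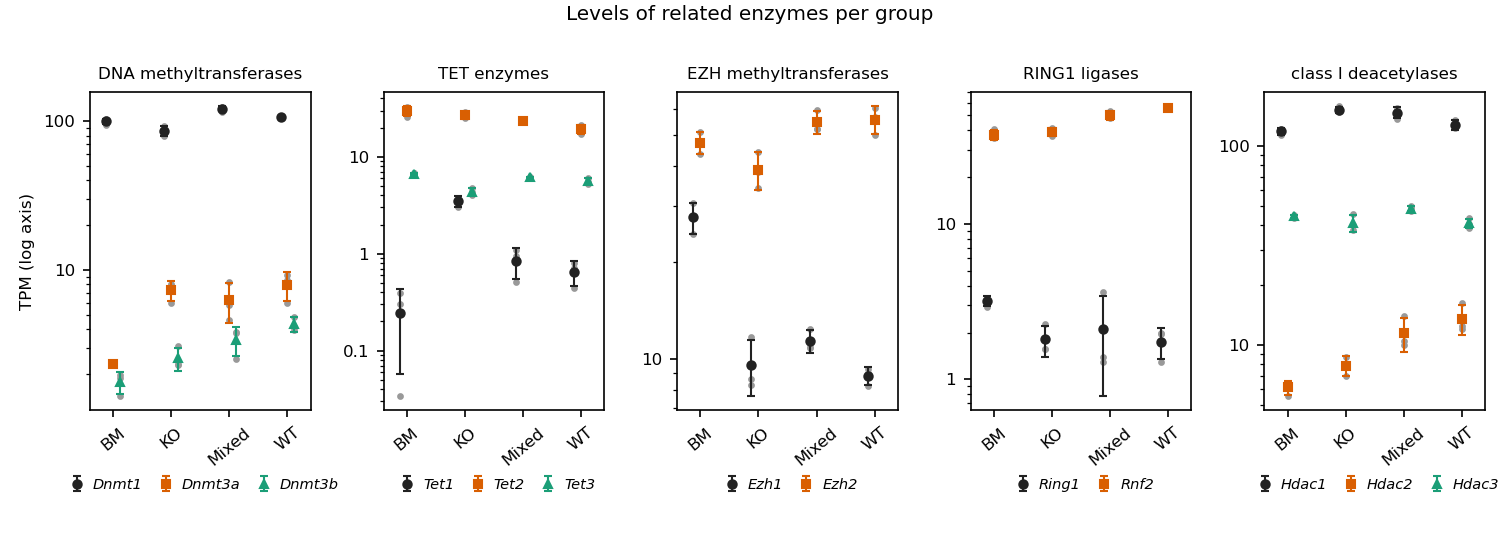
Levels of related enzymes in TPM on log axes, with group means and SD in colour and single libraries in grey (n = 3 per group). Ezh1 rises from 8.83 ± 0.560 in WT to 27.6 ± 3.09 in bone marrow (BM) while Ezh2 stays between 38.8 and 55.7, and Tet1 is highest in KO, at 3.49 ± 0.420.

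The TET genes did not move as one. Tet1 was scarce in bone marrow, at 0.660, 0.885 and 0.347 CPM, and stood at 2.93, 2.69 and 1.59 in Mixed and at 1.95, 2.23 and 1.83 in WT. The bone marrow libraries lay below all fetal ones, 3.15-fold lower than WT (adjusted p = 8.2e-05), though on few counts. Tet2, whose loss is known to expand blood stem cells, was at 116, 120.2 and 119 CPM in bone marrow, 127, 118 and 116 in KO, 98.2, 82.3 and 91.4 in Mixed and 87.4, 82.5 and 88.5 in WT. Bone marrow was 1.38-fold higher than WT (adjusted p = 2.1e-06) and 1.31-fold higher than Mixed. Tet3 read 48.1 to 50.2 CPM in bone marrow and 41.6 to 47.2 in WT and did not pass the test (log2 difference 0.16, adjusted p = 0.0742), but passed without WT 2 (0.218).

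In PRC2 the 2 alternative catalytic subunits went opposite ways. Ezh1 was at 65.1, 77.8 and 79.3 CPM in bone marrow, 26.7, 29.0 and 36.4 in KO, 31.3, 30.1 and 32.3 in Mixed and 22.4, 26.2 and 27.2 in WT. All 3 bone marrow libraries were above all 9 fetal ones, 2.93-fold higher than WT (adjusted p = 7.46e-11) and 2.37-fold higher than Mixed (adjusted p = 2.28e-09). Ezh2 was at 63.0, 57.3 and 56.5 CPM in bone marrow, 52.0, 49.3 and 52.1 in KO, 66.1, 68.9 and 65.6 in Mixed and 71.6, 73.0 and 67.1 in WT. Its decrease was 1.20-fold against WT (adjusted p = 0.0015) and 1.13-fold against Mixed (adjusted p = 0.0209). The call against Mixed ended without BM 3 or without Mixed 2, where the log2 difference was -0.16 to -0.15.

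As a ratio of TPM, Ezh1 amounted to 0.586 ± 0.0595 of Ezh2 in bone marrow, 0.245 ± 0.0252 in KO, 0.209 ± 0.0282 in Mixed and 0.160 ± 0.0228 in WT. The bone marrow libraries, at 0.521 to 0.638, lay above the highest fetal library, at 0.265. Ezh2 remained the more abundant of the pair in all 12 libraries.

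The core partners that both enzymes need were lower in bone marrow. Eed, which binds the methylated histone, was at 56.4, 55.2 and 50.5 CPM in bone marrow, 71.7, 71.0 and 66.1 in KO, 73.4, 83.8 and 81.0 in Mixed and 96.7, 90.5 and 82.0 in WT, 1.66-fold lower than WT (adjusted p = 1.39e-08). Suz12, the scaffold subunit, was at 25, 21.7 and 22.9 CPM in bone marrow, 39.9, 42.4 and 35.2 in KO, 30.2, 36.4 and 33.2 in Mixed and 37.9, 40.1 and 38.2 in WT, 1.67-fold lower than WT (adjusted p = 3.33e-07). For both genes the bone marrow libraries lay below all fetal libraries. Of the accessory subunits, Phf19, a Polycomb-like protein that binds methylated histone H3 lysine 36, read 7.09, 7.50 and 8.98 CPM in bone marrow, 15.6, 13.2 and 16.4 in Mixed and 12.4, 13.49 and 11.3 in WT, 1.58-fold lower than WT (adjusted p = 0.00106). Jarid2, which helps bring PRC2 to chromatin, moved the other way, from 126 ± 11.3 CPM in WT to 158 ± 6.79 in bone marrow, 1.26-fold higher (adjusted p = 4.3e-04).

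The PRC1 genes included the member with the largest rise in bone marrow. Cbx7, a chromodomain reader of methylated histone H3, was at 5.61, 4.19 and 4.12 CPM in bone marrow, 2.46, 2.05 and 1.90 in KO, 0.778, 1.27 and 0.866 in Mixed and 1.56, 1.25 and 1.27 in WT. Bone marrow lay above every fetal library, 3.41-fold higher than WT (adjusted p = 5.56e-06) and 4.73-fold higher than Mixed (adjusted p = 3.92e-07). Its relative Cbx8 was at 10.8, 9.09 and 7.94 CPM in bone marrow, 2.68, 5.47 and 3.68 in KO, 4.94, 5.42 and 4.47 in Mixed and 4.30, 5.0 and 4.89 in WT, 1.95-fold higher than WT (adjusted p = 2.78e-04). Another reader, Cbx2, ranged from 0.564 to 2.58 CPM over all libraries and was not called in any of the 5 comparisons. It was called higher in bone marrow without WT 2 (log2 difference from WT 1.14) or Mixed 2 (from Mixed 1.42), and in KO without WT 2 (from WT 1.26), Mixed 2 or WT 3 (from Mixed 0.948 to 1.54).

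The 2 catalytic RING proteins of PRC1 went opposite ways, as the EZH pair did. Ring1 was at 4.34, 3.91 and 4.66 CPM in bone marrow, 3.59, 2.52 and 2.41 in KO, 1.97, 1.87 and 3.13 in Mixed and 2.79, 1.83 and 2.82 in WT, 1.74-fold higher than WT (adjusted p = 0.00939). Without WT 2 that call ended, at a log2 difference of 0.615 against 0.80 with all libraries. Rnf2, the other ligase, was at 61.4, 58.1 and 58.3 CPM in bone marrow, 82.1, 79.1 and 76.3 in KO, 80.2, 88.6 and 87.7 in Mixed and 101, 97.9 and 90.1 in WT, 1.63-fold lower than WT (adjusted p = 3.52e-09). Per length, Rnf2 exceeded Ring1 by 10.8 to 12.4 times in bone marrow and by 13.4 to 43.0 times in the fetal libraries. Bmi1, the RING partner known for its part in blood stem cell maintenance, was at 3.42 to 4.84 CPM in bone marrow and 3.89 to 5.03 in WT and was not called (adjusted p = 0.281).

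Kdm6b, which removes methyl groups from histone H3 lysine 27 and is induced in inflammatory macrophages, was at 53.1 to 56.6 CPM in bone marrow and 35.1 to 37.7 in WT, 1.48-fold higher (adjusted p = 7.76e-07). Kmt2a, a methyltransferase of histone H3 lysine 4, was at 25 to 27.9 CPM and 21.0 to 25.7, which overlapped, and was not called (adjusted p = 0.0562). Leaving out WT 2 called it, at a log2 difference of 0.35.

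Deacetylases went both ways. Of the class I enzymes, Hdac2 was at 8.63, 8.06 and 6.90 CPM in bone marrow, 10.7, 13.1 and 12 in KO, 12, 16.9 and 12.2 in Mixed and 17, 19.97 and 15.7 in WT, 2.24-fold lower than WT (adjusted p = 5.46e-07). Hdac1, its close relative, fell by only 0.25 on the log2 scale, from 188 ± 8.60 to 159 ± 7.47 CPM (adjusted p = 6.4e-04). Hdac3 was level between bone marrow and WT, at 63.7 ± 0.908 and 63.7 ± 4.20 CPM, with a 95% interval of the log2 difference from -0.15 to 0.15. Against Mixed it was 1.14-fold lower (adjusted p = 0.0353), a call that ended without BM 1, BM 3, Mixed 1 or Mixed 2, at log2 differences of -0.19 to -0.16.

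Of the class IIa enzymes, Hdac7 was at 14.3, 18 and 12.6 CPM in bone marrow, 10.5, 9.30 and 8.87 in KO, 7.41, 7.33 and 7.22 in Mixed and 7.31, 7.15 and 7.70 in WT. Its bone marrow libraries were above all others, 2.03-fold higher than WT (adjusted p = 1.46e-06). Hdac9 was at 22.5, 21.0 and 20.2 CPM in bone marrow, 33.6, 31.4 and 39.3 in KO, 39.98, 45.1 and 42.3 in Mixed and 41.2, 46.9 and 48.0 in WT. It lay below all fetal libraries, 2.14-fold lower than WT (adjusted p = 1.01e-09) and 2.00-fold lower than Mixed (adjusted p = 5.76e-09). Sirt1, a NAD-dependent deacetylase, was at 4.24 to 6.93 CPM in bone marrow and 6.03 to 7.89 in WT and was not called (adjusted p = 0.0969), but passed without BM 1 or KO 3, at log2 differences of -0.66 to -0.44.

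The 2 SWI/SNF members differed by less than 1.5-fold between bone marrow and WT. Smarca4, an ATPase of SWI/SNF, went from 115 ± 8.62 CPM in WT to 86.8 ± 2.54 in bone marrow, 1.32-fold lower (adjusted p = 3.9e-05), and Smarcc1, a core subunit, was 1.24-fold lower than WT (adjusted p = 0.00185) but was not called against Mixed (log2 difference -0.13, adjusted p = 0.167). In NuRD, Mbd3 was at 10.003, 9.88 and 10.9 CPM in bone marrow, 16.6, 14.3 and 13.8 in KO, 16.7, 18.3 and 16.9 in Mixed and 16.6, 17.3 and 17.2 in WT, 1.66-fold lower than WT (adjusted p = 4.63e-06). The ATPase Chd4 was at 105 ± 3.64 CPM in bone marrow and 106 ± 2.86 in WT and Mta2 at 197 ± 7.76 and 183 ± 3.76, and neither was called. The 95% interval of the log2 difference was -0.13 to 0.12 for Chd4 and -0.00435 to 0.225 for Mta2.

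Genes of cell division differed between the same groups. All 14 DNA replication genes of a fixed list (Mcm2 to Mcm7, Pcna, Rrm1, Rrm2, Tyms, Cdc6, Cdt1, Gins2, Fen1) were lower in bone marrow than in WT, with sums of 3532 to 3744 CPM against 5308 to 5402 and 5451 to 5650 in Mixed. Of 12 mitosis genes, 9 were lower and 1 was higher, with sums of 2626 to 2770 CPM against 3353 to 3581. These sums moved in the same direction as Uhrf1, Dnmt1, Ezh2, Hdac2 and the other members that were lower in bone marrow, and their part in those differences was not tested. No replication or mitosis gene was at 0 in any group.

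Markers of other cells also differed. Stem and progenitor genes summed to 50.5 to 56.4 CPM in bone marrow and 577 to 624 in WT, with 5 of 6 tested lower, among them Cd34, and Hlf was at 0 in bone marrow. Erythroid genes summed to 12.9 to 24.5 CPM and 763 to 1401, with 8 of 8 lower, and granulocyte genes to 2099 to 2405 and 6989 to 8887, with 5 of 10 lower and 3 higher. B cell genes went the other way, at 951 to 1090 CPM in bone marrow and 136 to 163 in WT, with 5 of 6 tested higher and 1 lower. Ebf1 and Pax5 were at 0 in WT. Dendritic cell genes summed to 121 to 129 CPM and 22.2 to 24.4, with 4 of 7 higher and 1 lower. Of the macrophage genes, 5 of 6 were lower and Adgre1 was higher, which left the sum at 312 to 325 CPM against 208 to 268. All 5 hepatocyte genes were lower, with sums of 0 to 0.440 CPM against 8.18 to 62.6, and Alb and Apoa1 were at 0 in bone marrow. Their part in the member differences was not tested.

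**Figure D4:**
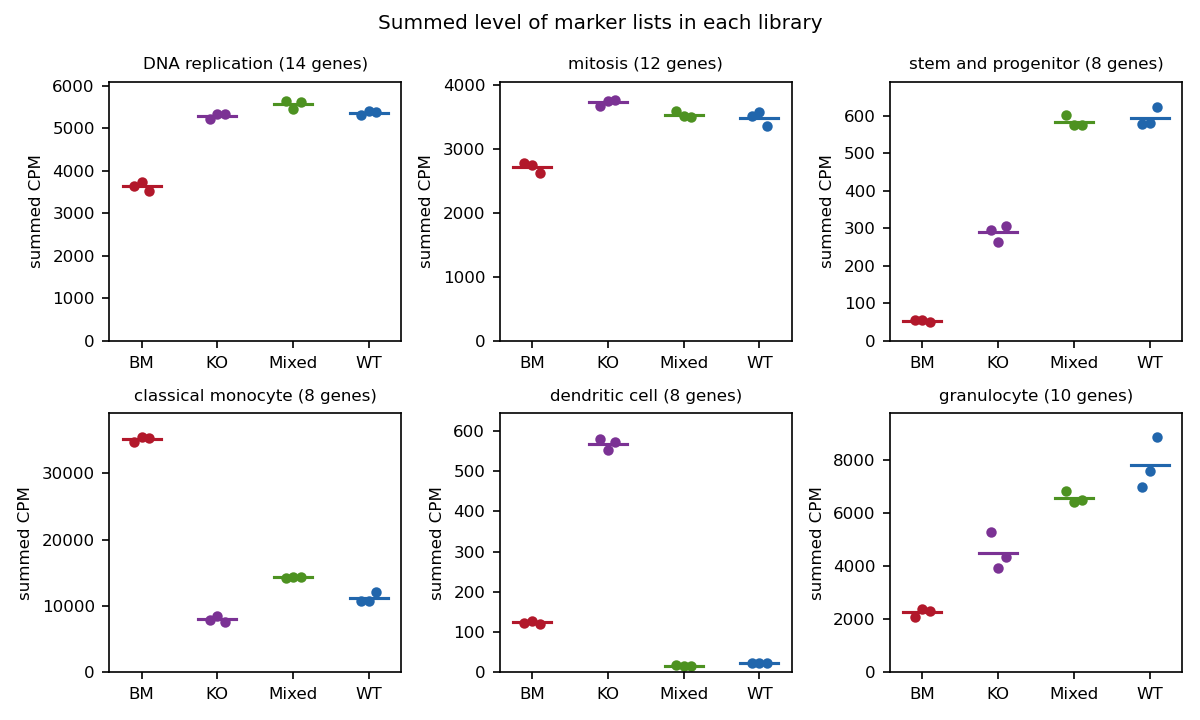
Summed CPM of 6 fixed marker lists in each of the 12 libraries, with a point per library and a bar at the group mean, on axes that start at 0. Bone marrow (BM) has the lowest replication sums, 3532 to 3744 CPM, and the dendritic cell sums are highest in KO, 554 to 580 CPM.

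Promoter sequence was read for 4 members that differ in direction, to show the letters behind 2 motifs of cell cycle genes: the maintenance pair Dnmt1 and Uhrf1, and Ezh2 and Ezh1. Each window is 300 bases from RefSeq on GRCm38.p6, 250 before the start site and 50 from it on, 5′ to 3′ on the strand of the gene. Capitals mark E2F-type cores (TTCCCGC, the form written TTGGCGC, the form written TTCGCGC and the form written TTGCCGC) and the CCAAT box, on either strand, where 2 matches may overlap. The windows are chr17:56304063-56304362 on the plus strand for Uhrf1, chr9:20952574-20952873 on the minus strand for Dnmt1, chr6:47594981-47595280 on the minus strand for Ezh2 and chr11:101226414-101226713 on the minus strand for Ezh1.
Uhrf1: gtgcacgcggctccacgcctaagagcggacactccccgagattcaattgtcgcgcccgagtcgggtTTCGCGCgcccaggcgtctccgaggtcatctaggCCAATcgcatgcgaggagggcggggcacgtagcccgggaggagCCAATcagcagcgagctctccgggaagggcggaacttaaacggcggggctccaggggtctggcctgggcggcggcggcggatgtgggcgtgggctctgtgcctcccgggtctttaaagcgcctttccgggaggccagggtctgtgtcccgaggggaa
Dnmt1: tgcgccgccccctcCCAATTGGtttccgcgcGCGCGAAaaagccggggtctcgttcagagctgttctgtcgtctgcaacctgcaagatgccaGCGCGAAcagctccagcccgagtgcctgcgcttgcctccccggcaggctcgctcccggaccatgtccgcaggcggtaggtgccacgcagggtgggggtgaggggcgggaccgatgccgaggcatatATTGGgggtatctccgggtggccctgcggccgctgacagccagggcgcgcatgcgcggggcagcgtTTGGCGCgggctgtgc
Ezh2: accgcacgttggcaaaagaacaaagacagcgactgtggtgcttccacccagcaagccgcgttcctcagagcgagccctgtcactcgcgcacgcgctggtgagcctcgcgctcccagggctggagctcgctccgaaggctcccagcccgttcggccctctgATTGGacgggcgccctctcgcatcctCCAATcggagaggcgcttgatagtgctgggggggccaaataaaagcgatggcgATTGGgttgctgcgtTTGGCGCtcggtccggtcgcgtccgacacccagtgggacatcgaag
Ezh1: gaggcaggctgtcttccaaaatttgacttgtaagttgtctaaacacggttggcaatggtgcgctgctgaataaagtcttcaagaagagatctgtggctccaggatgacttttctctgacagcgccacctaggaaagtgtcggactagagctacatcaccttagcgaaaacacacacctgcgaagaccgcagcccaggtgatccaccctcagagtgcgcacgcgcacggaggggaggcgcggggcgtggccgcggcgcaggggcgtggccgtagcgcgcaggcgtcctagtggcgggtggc
The Uhrf1 window holds 1 E2F-type core, 184 bases before the start, and the Ezh2 window holds 1 at base 4 from the start. The Dnmt1 window shown, 1 of 3 that RefSeq lists for the gene, holds 3 such cores, and its other windows hold none. Ezh1 has neither motif in this window, which says only that these letters are not there.

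Of the 28 members with a RefSeq promoter in the table used, 6 had an E2F-type core in at least 1 window (Dnmt1, Uhrf1, Ezh2, Suz12, Phf19 and Mbd3). By window, 17.9% of the 39 member promoters and 9.57% of all 32817 promoters of that length held a core, and 38.5% and 37.4% held a CCAAT box. The 32817 include promoters of genes that did not pass the filter on low counts. By gene, 6 of the 28 members had a core, beside 1918 tested genes with one and 8114 without. The median GC content was 66.3% in the member windows and 52.7% in all. All 6 members with a core were called lower in bone marrow against WT, as were 9 of the 22 without one. The decreases of the 6 ran from 1.15-fold for Dnmt1 to 1.78-fold for Uhrf1. Among the 9, those of Tet1 (3.15-fold), Dnmt3a (2.89), Dnmt3b (2.67), Hdac2 (2.24) and Hdac9 (2.14) were larger. Those of Eed, Rnf2, Smarca4 and Smarcc1, without a core as well, were 1.24 to 1.66-fold. Over all tested genes the share called lower was 39.0% of 1918 genes with a core and 31.9% of 8114 without. A match is a description of letters and not a bound site, and the members were chosen with results known, so no test was made. Cbx2, Hdac1, Hdac3 and Kdm6b were the other members.

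KO against WT had more calls than large changes. Of the members, 17 passed the test, 6 higher and 11 lower in KO, against 38.1% of all genes (18.2% higher, 19.9% lower). At 1.5-fold or more only Tet1 and Phf19 were called, 2 of 32, where 17.7% of all genes were. The median difference over the members was 0.020 on the log2 scale, against -0.029 over all genes, and the median size was 0.26 against 0.28. Scaling by library totals moved the median of all genes to -0.13 and the share of higher calls among all called genes from 47.7% to 32.5%, while among the members it gave 4 higher and 13 lower calls, without Ezh1 and Hdac7 and with Mbd3 and Mta2 added.

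Tet1 had the largest difference of any member in this study. It was at 10.1, 10.2 and 12.1 CPM in KO, against 1.95 in WT 1, the library of the same embryonic day, and 2.23 and 1.83 in WT 2 and WT 3. The highest library outside KO was Mixed 1, at 2.93 CPM, and the fitted difference was 5.36-fold from WT (adjusted p = 3.86e-08) and 4.48-fold from Mixed (adjusted p = 1.53e-07). In TPM, Tet1 was at 3.49 ± 0.420 in KO, near Tet3 at 4.35 ± 0.363 and below Tet2 at 26.9 ± 2.21. Bone marrow, with 0.631 ± 0.270 CPM, stood at the other end.

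Of the other DNA methylation genes, Tet2 rose with Tet1, 1.40-fold (adjusted p = 3.12e-06), to 116 to 127 CPM, which overlaps bone marrow at 116 to 120.2. Tet3 fell 1.16-fold (adjusted p = 0.0299), Dnmt1 fell 1.13-fold (adjusted p = 0.0139) and Dnmt3b fell 1.44-fold (adjusted p = 0.0111). Dnmt3a, at 37.5 to 41.2 CPM in KO, was above the 3 WT libraries in each but did not pass (adjusted p = 0.284), and neither did Uhrf1 (adjusted p = 0.362). The low Dnmt3a and Uhrf1 of bone marrow thus had no counterpart in KO.

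In PRC2, Phf19 had the largest decrease in KO. It was at 7.78, 4.89 and 7.48 CPM, below all Mixed and WT libraries, 1.84-fold lower than WT (adjusted p = 1.42e-04) and 2.23-fold lower than Mixed (adjusted p = 4.63e-06). Ezh2, at 49.3 to 52.1 CPM in KO, was 1.38-fold lower than WT (adjusted p = 6.62e-06) and 1.31-fold lower than Mixed (adjusted p = 6.59e-05), with no overlap. Eed was 1.29-fold lower than WT (adjusted p = 3.42e-04), and Suz12 did not differ beyond its spread (log2 difference 0.014, 95% interval -0.17 to 0.20). Ezh1 was 1.21-fold higher than WT (adjusted p = 0.0478) and was not called against Mixed (adjusted p = 0.892).

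In PRC1, Rnf2 was 1.22-fold lower (adjusted p = 0.00114). Cbx7, at 1.90 to 2.46 CPM in KO, was above all WT and Mixed libraries, and passed against Mixed, 2.19-fold higher (adjusted p = 0.00323), but not against WT (adjusted p = 0.0674). Cbx8 in KO, 2.68 to 5.47 CPM, covered the WT range and was not called, though leaving out KO 2 called it lower (log2 difference -0.575 from WT and -0.634 from Mixed). Kdm6b was at 57.9, 51.5 and 52.7 CPM in KO, against 34.9, 39.5 and 39.3 in Mixed and 37.7, 35.1 and 37.3 in WT. That was 1.47-fold above WT (adjusted p = 3.13e-06) and 1.43-fold above Mixed (adjusted p = 9.63e-06). The KO values overlapped those of bone marrow, 53.1 to 56.6.

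Among deacetylases, Hdac1 rose in KO to 239, 255 and 254 CPM, from 182, 198 and 185 in WT and 219, 200.3 and 214 in Mixed. The fold was 1.32 against WT (adjusted p = 5.65e-06) and 1.18 against Mixed (adjusted p = 0.00156), and no KO library overlapped either group. Scaling by library totals ended the call against Mixed. Bone marrow, at 151 to 166 CPM, was lower than WT, so the 2 comparisons had opposite signs for Hdac1. Hdac2 fell 1.47-fold (adjusted p = 0.00359), Hdac9 fell 1.30-fold (adjusted p = 0.00175) and Hdac7 rose 1.29-fold (adjusted p = 0.0437). Smarca4 and Smarcc1 were 1.14-fold and 1.19-fold lower (adjusted p = 0.0418 and 0.0149), and Chd4, Mbd3, Mta2, Hdac3, Sirt1, Kmt2a, Bmi1, Jarid2, Cbx2 and Ring1 were not called. Of these, Hdac3 was called higher without KO 1 or WT 3 (log2 difference 0.202 to 0.222).

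Several of the small KO calls changed with the libraries or the fit. Embryonic day was used as a covariate in a fit without the bone marrow libraries, where WT 1 is the only WT library of the age of the KO libraries. In that fit 11 members were called, and over all genes the calls went from 5565 to 3715. The parts of the covariate and of the smaller fit in this change were not separated. Of the 6 members that were not called, Hdac2 and Hdac7 kept differences near those without the covariate (log2 -0.49 beside -0.56, and 0.41 beside 0.37). Those of Dnmt1 (-0.14 beside -0.17), Dnmt3b (-0.33 beside -0.53), Hdac9 (-0.22 beside -0.38) and Tet3 (-0.16 beside -0.22) were smaller. Leaving out KO 2 ended the call for Dnmt1 (log2 difference -0.14), and KO 1 or WT 2 that for Dnmt3b (-0.45). Smarcc1 lost it without KO 2 or WT 1 (-0.23 to -0.20), Tet3 without BM 2, KO 2, KO 3 or WT 2 (-0.23 to -0.15), and Smarca4 without BM 2, KO 2, KO 3, WT 1 or WT 2 (-0.21 to -0.13). Ezh1 lost it without any of 8 libraries (BM 3, KO 2, KO 3, Mixed 1, Mixed 2, Mixed 3, WT 1, WT 2; 0.14 to 0.32) and Hdac7 without any of 9 (all but BM 2, BM 3 and KO 3; 0.30 to 0.40). DESeq2 ended the calls for Hdac7, Smarca4 and Tet3, and limma-voom those for Ezh1, Hdac7 and Smarca4. Counting every alternative, the call was lost in 16 of 22 for Hdac7, 12 for Smarca4, 11 for Ezh1 and 10 for Tet3. Tet1, Tet2, Kdm6b, Hdac1, Ezh2, Eed, Phf19 and Rnf2 stayed called under all 21 alternatives other than the test against a 1.5-fold change, which kept Tet1 alone.

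Marker levels moved with the KO group. All 7 tested genes of an 8-gene dendritic cell list (Clec9a, Xcr1, Itgax, Flt3, Zbtb46, Dpp4, H2-Aa) were higher in KO than in WT, with sums of 554 to 580 CPM against 22.2 to 24.4, and no gene of the list was at 0 in every library of a group. H2-Aa, a class II antigen presentation gene, was the largest part, at 359 ± 7.69 CPM in KO. B cell genes summed to 420 to 506 CPM in KO and 136 to 163 in WT, with 2 of 6 tested genes higher and 1 lower. Stem and progenitor genes summed to 265 to 307 CPM in KO and 577 to 624 in WT. In that last list 2 of 6 tested genes were lower and 2 higher, with Cd34 at 174 ± 7.90 against 535 ± 22.3 CPM and Flt3 10.2-fold and Meis1 1.39-fold higher. Replication sums, at 5212 to 5346 CPM, were close to WT, with 1 gene higher and 5 lower of 14. Mitosis sums, at 3668 to 3763 CPM, lay above those of WT, at 3353 to 3581, with 2 genes higher and 1 lower of 12. Granulocyte sums were 3927 to 5283 CPM in KO and 6989 to 8887 in WT, with 2 genes higher and 4 lower of 10. The part of these levels in the rise of Tet1, Tet2, Kdm6b and Hdac1 or in the decrease of Phf19 and Ezh2 was not tested.

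KO against Mixed, which shares the KO libraries, called 16 members, 8 higher and 8 lower, against 36.7% of all genes (18.2% higher, 18.5% lower). Scaling by library totals changed the share of higher calls among all called genes there from 49.5% to 33.7%. Beside Cbx7, 3 genes passed here that did not pass against WT: Dnmt3a, 1.26-fold higher (adjusted p = 0.00482), Suz12, 1.18-fold higher (adjusted p = 0.044), and Mta2, 1.12-fold lower (adjusted p = 0.0208). Suz12 and Mta2 each lost the call when single libraries were left out. For Suz12 these were BM 3, KO 1, KO 2, Mixed 1, Mixed 3, WT 1 or WT 2 (log2 difference 0.17 to 0.23). For Mta2 they were BM 2, KO 2, KO 3 or Mixed 2 (-0.15 to -0.13). Of the genes called against both groups, Eed lost the call against Mixed without any of 7 libraries (-0.21 to -0.15). Hdac7 lost it without any of 5 (0.31 to 0.40), Hdac9 without any of 3 (-0.26 to -0.22) and Smarca4 without any of 3 (-0.19 to -0.13). In the other direction, 5 genes called against WT did not pass against Mixed: Dnmt3b (adjusted p = 0.546), Rnf2 (adjusted p = 0.19), Hdac2 (adjusted p = 0.306), Smarcc1 (adjusted p = 0.51) and Ezh1. The difference between the 2 reference groups is Mixed against WT, which called none of these genes.

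Mixed against WT called none of the 32 members, against 8.07% of all genes. At an unadjusted p under 0.05 there were 12 members, beside 22.3% of all genes, and DESeq2 called 3 (Dnmt1, Uhrf1, Hdac1) and limma-voom 0. The closest to the threshold was Dnmt1, 1.12-fold higher in Mixed (adjusted p = 0.0633), followed by Hdac1 (adjusted p = 0.0822) and Ezh1 (adjusted p = 0.093). Differences ran from -0.47 for Cbx7 to 0.30 for Ezh1 on the log2 scale, with 95% intervals reaching at most 1.09 in size. Leaving out a single library called Dnmt1 (BM 1), Ezh1 (KO 3), Eed and Rnf2 (WT 3) and Hdac2 and Smarcc1 (Mixed 2). WT 1 differs in embryonic day from the Mixed libraries, so group and age are partly joined here. A p that misses the threshold does not show that the 2 fetal groups were alike.

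Other genes of the same pathways, from fixed lists that hold none of the 32, were called in both directions in bone marrow, to be read beside the 32.1% of all genes called higher and 31.9% called lower. In DNA methylation, 4 of 19 tested genes were higher and 7 lower than in WT. The named ones were Hells, a remodeller needed for methylation, at 52.8 ± 1.39 against 149 ± 9.10 CPM (2.82-fold lower, adjusted p = 2.2e-14), and Ahcy, which clears the by-product of methyl transfer, 2.47-fold lower (adjusted p = 1.08e-12). Idh1 and Idh2 make the cofactor of TET enzymes, and they split, Idh1 2.26-fold higher (adjusted p = 2.17e-14) and Idh2 2.09-fold lower (adjusted p = 5.94e-12). The PRC2 list also holds Kdm6a, Asxl1, Asxl2 and Bap1, which are not subunits of PRC2. Of its 10 genes, 5 were higher and 5 lower. At a mean of 1 log2 CPM or more, the largest changes were decreases of Rbbp7 (2.00-fold), Mtf2 (1.55-fold), Aebp2 (1.46-fold) and Rbbp4 (1.42-fold). Rbbp7 and Rbbp4 are histone chaperones that PRC2 shares with NuRD.

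In PRC1, 4 of 18 were higher, with Phc3 1.94-fold and Phc1 1.70-fold, and 3 were lower, with Rybp 1.65-fold and Yaf2 1.62-fold. Of the deacetylases and corepressors, 11 of 20 were higher and 4 lower, led by Hdac10 at 27.3 ± 3.28 against 7.94 ± 0.352 CPM (3.44-fold, adjusted p = 5e-11), Sirt2 (2.18-fold) and Hdac5 (2.06-fold). Sirt5, a mitochondrial enzyme of the same family, was 3.70-fold lower (adjusted p = 4.73e-07). NuRD had 2 of 9 higher and 4 lower, with Mta3 2.08-fold higher and Cdk2ap1 1.96-fold lower. SWI/SNF had 7 of 19 higher and 4 lower, and its alternative ATPase Smarca2 was at 32.6 ± 1.62 against 9.58 ± 1.23 CPM, 3.4-fold higher (adjusted p = 1.53e-12), while Smarca4 was lower. Arid1b and Bcl7b of SWI/SNF were 2.17-fold and 1.93-fold higher and Bcl7a was 1.86-fold lower. Among trithorax genes, 4 of 14 were higher, with Kmt2e 1.72-fold and Kmt2c 1.58-fold, and 2 were lower, Dpy30 1.97-fold and Psip1 1.56-fold. The median difference of these lists lay between -0.16 for DNA methylation and 0.29 for deacetylases and corepressors on the log2 scale, beside 0.0031 over all genes.

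In KO against WT the same lists gave 1 higher and 7 lower of 19 for DNA methylation. The PRC2 list gave 0 and 1 of 10, PRC1 2 and 6 of 18 and deacetylases and corepressors 6 and 2 of 20. NuRD gave 1 and 0 of 9, SWI/SNF 2 and 2 of 19 and trithorax genes 0 and 3 of 14, where 18.2% of all genes were higher and 19.9% lower. Smarca2 was the largest of them, at 27.2 ± 0.394 against 9.58 ± 1.23 CPM, 2.83-fold higher (adjusted p = 1.02e-10). Gadd45g and Idh1 were 2.02-fold and 1.95-fold lower, Hdac10 was 1.68-fold lower, and Phc1 was 1.75-fold higher. Idh1 and Hdac10 were lower in KO and higher in bone marrow than in WT. Bcorl1 and Bcl7a were 1.46-fold and 1.49-fold lower, Aebp2 1.35-fold, Wdr5 1.29-fold and Ash2l 1.24-fold lower, and Mta3 was 1.28-fold higher. With the age covariate and without bone marrow in the fit, Phc1, Bcorl1, Bcl7a and Ash2l were not called. Their log2 differences were 0.83, -0.57, -0.37 and -0.27, beside 0.81, -0.54, -0.58 and -0.31 with all libraries and no covariate.

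The counting was not stated to use strand, and the library kit does not mark it, so reads of a member and of a gene on the opposite strand cannot be told apart. By the GENCODE annotation of GRCm38, the share of a member's exonic bases that lie in an opposite-strand gene was highest for Eed at 6.8% (chr7:89954654-89980983), Kdm6b at 4.1% (chr11:69398508-69413675), Rnf2 at 3.8% (chr1:151458004-151500955), Suz12 at 3.6% (chr11:79993106-80034123) and Ezh2 at 2.6% (chr6:47530139-47595341).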

How the data were processed

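Bulk RNA-seq of 12 libraries was analysed from tables deposited by the authors: estimated counts per gene, used for all tests, and TPM, used to compare levels between genes. The tools STAR, Salmon, featureCounts, Subread and DRAGEN and the build mm10 are named per the submitters' processing notes, without their roles. Of the nonzero counts, 28.5% were not whole, so all were rounded. Of 55774 entries, 287 repeats were removed.

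Genes were filtered with filterByExpr (minimum count 10, minimum total 15), scaled by TMM and tested in 1 fit over all 12 libraries with edgeR 4.0.16 (glmQLFit, robust, and glmQLFTest; R 4.3.3), two-sided, with Benjamini-Hochberg adjustment over 14618 genes; an adjusted p under 0.05 is a call. The common biological coefficient of variation was 0.0917. CPM are per 1e+06 counts on TMM-scaled library sizes. Libraries of a group differed by more than sampling noise (chi-square per degree of freedom 4.63 to 11.3), and none were merged. Depths of 17384911 to 24473471 counts limit precision most for Tet1, Cbx2 and Cbx7.

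Groups follow the sample titles. Values in every library are given for members called at 1.5-fold or more in bone marrow or KO against WT and for chosen family pairs. From each of 7 pathway lists, the called genes that changed most, with a mean of 1 log2 CPM or more, are named, at most 4 for bone marrow against WT and at most 2 for KO against WT; 1 gene that the rule names is not reported here. The members, lists and rules were chosen with earlier results of these data known. Alternatives were other scalings, filters and tests (limma 3.58.1, DESeq2 1.42.0), a replicate block, an age covariate (fitted without bone marrow) and leaving out each library. The comparison by TPM means was chosen after seeing the data. Promoter windows are from RefSeq.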

Additional observations from a re-analysis of the deposited data

How the results depend on the processing

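No member called in any comparison changed direction under any alternative, nor in the deposited TPM means (24, 24, 17 and 16 members in bone marrow against WT, bone marrow against Mixed, KO against WT and KO against Mixed). A test against a 1.5-fold change called 4247, 3224, 1345, 1357 and 0 genes in those comparisons and in Mixed against WT, in place of 9351, 8535, 5565, 5365 and 1180, and 13, 9, 1, 2 and 0 members in place of 24, 24, 17, 16 and 0. The age covariate, fitted without bone marrow, left 3715 genes and 11 members called in KO against WT. In Mixed against WT, 1 member was called with no filter on low counts, 3 with DESeq2 and 2 with only the 2 groups in the fit. Leaving out single libraries gave 414 to 1457 genes and 0 to 2 members in Mixed against WT. The lowest counts of genes came without Mixed 1 (414), WT 1 (464), Mixed 3 (665) and WT 2 (688). Fits that left out Mixed 2 or WT 3, with as many libraries, gave 1024 and 1457 genes. The cause of these differences was not tested. In the other comparisons it gave 24 to 26 members for bone marrow against WT, 22 to 25 for bone marrow against Mixed, 12 to 17 for KO against WT and 11 to 17 for KO against Mixed. Over the alternatives other than the 1.5-fold test, 23 of 24 calls were kept in bone marrow against WT, 22 of 24 in bone marrow against Mixed, 8 of 17 in KO against WT and 9 of 16 in KO against Mixed. The labels do not say whether replicate numbers pair the libraries. Correlations of deviations between libraries of the same number were -0.0353 to 0.0693. Libraries correlated best with their own number in 1 or 2 of 3 cases per comparison. Deviations from a mean of 3 libraries hold sampling noise, so low correlations cannot exclude a pairing. With the replicate block, 9262, 8479, 5525, 5288 and 1168 genes were called, and 24, 25, 17, 17 and 1 members. Depth limits Tet1 in bone marrow and Cbx2, for which small differences were not detectable.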
